A study of Mus musculus with 3 samples.

Results

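The genes of the synaptic SNARE fusion core and its complexins were examined in RNA bound to tagged ribosomes from the mouse deep cerebellar nuclei. They are the 8 genes Snap25, Vamp1, Vamp2, Stx1a, Cplx1, Cplx2, Nsf and Napb, taken by name from the 32531 gene rows of 3 count tables, and all 8 were found. Each library came from adult mice of the line Htr6-TRAP NIDA113 on C57BL/6J, which carry the ribosomal protein L10a fused to EGFP in a transgene named for the serotonin receptor gene Htr6. Tagged polysomes were captured with anti-EGFP antibodies (translating ribosome affinity purification, TRAP), and the 3 libraries form 1 group, so genes are compared with each other within a library. The labels do not say how many animals each library holds, whether separate animals gave them, or which cells carry the transgene, so the spread between libraries may be partly technical. No unpurified RNA was analysed here, so the levels below are not enrichments over tissue.

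Transmitter release needs a vesicle to fuse with the plasma membrane. The vesicle protein synaptobrevin (Vamp1, Vamp2) pairs with syntaxin (such as Stx1a) and Snap25 on the plasma membrane into a helical bundle that pulls the membranes together. Complexins (Cplx1, Cplx2) bind the assembled bundle and tune when it fires. Afterwards the ATPase NSF (Nsf), held to the bundle by SNAP adaptor proteins such as beta-SNAP (Napb), takes it apart for the next round. Neurons of the deep nuclei are the output cells of the cerebellum and fire at high rates.

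The libraries held 7622010 to 8842058 counts assigned to genes, and 44.1% to 50.2% of the uniquely aligned reads were assigned to no counted feature. Such reads may still lie within genes, since the annotation and strand setting used are not given. CPM is the count of a gene scaled to 1000000 gene counts of its library. Per kb means CPM divided by the exon length of the gene, and levels of different genes are compared on that scale. In every library 6 of 6 pan-neuronal markers had at least 10 CPM, a level that 35.0% of the genes with a count reached. Of the glutamatergic deep nuclei markers 3 of 6 reached that level, of the inhibitory markers 2 of 4, of the granule cell markers 6 of 6 and of the Purkinje cell markers 5 of 6. Among glial lists the level was reached by 4 of 6 oligodendrocyte, 4 of 6 astrocyte and 1 of 6 microglial markers, with C1qa, Aif1 and Trem2 at 0 in all libraries. Summed Purkinje cell markers stood at 5539 to 7555 CPM and granule cell markers at 2723 to 3119 CPM. Summed oligodendrocyte markers stood at 2954 to 3649 CPM, glutamatergic deep nuclei markers at 431 to 652 and inhibitory markers at 396 to 910. The RNA thus held transcripts of several neuronal and glial types, so the levels below cannot be given to 1 cell type. Fewer cells of a type and less RNA per cell cannot be told apart.

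The coding sequences of the paralogs are close, so the stretches that resemble each other most are shown to let a reader judge whether reads can be assigned. Vamp1 and Vamp2 share 75.9% of 344 aligned coding bases and Cplx1 and Cplx2 79.6% of 402. The longest identical runs are 18 and 32 bases. Each line gives the 120 bases of highest identity, 5′ to 3′, from the longest coding transcript in GENCODE M21, with capitals at the bases that differ within the pair (14 and 16 bases).
Vamp1: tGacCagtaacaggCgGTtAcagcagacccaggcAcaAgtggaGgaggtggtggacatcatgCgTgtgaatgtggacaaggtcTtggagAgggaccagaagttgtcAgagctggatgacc
Vamp2: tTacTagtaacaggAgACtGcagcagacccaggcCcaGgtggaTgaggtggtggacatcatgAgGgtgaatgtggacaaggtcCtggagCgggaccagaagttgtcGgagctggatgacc
Cplx1: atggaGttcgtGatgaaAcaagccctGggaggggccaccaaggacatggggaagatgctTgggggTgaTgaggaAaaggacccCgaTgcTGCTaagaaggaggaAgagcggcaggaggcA
Cplx2: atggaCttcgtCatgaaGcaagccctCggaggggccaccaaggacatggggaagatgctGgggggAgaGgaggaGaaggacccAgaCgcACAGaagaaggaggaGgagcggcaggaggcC

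No 50-base word of the Vamp1, Vamp2, Stx1a, Cplx1 or Nsf transcript occurs in a transcript of another annotated gene. The share is 0.73% of such words for Snap25, 4.28% for Cplx2 and 0.02% for Napb, and none of these is shared with a paralog. With 100-base words only Cplx2 keeps shared words, at 3.23%. The read length is not given in the sources used here. No exon of the 8 genes overlaps an exon of another gene in that annotation.

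Snap25 dominated the fusion genes, and 7 of the 8 were among the abundant transcripts of the purified RNA. These 7 had at least 100 CPM in every library, a level that 9.32% of the 16071 genes with a count reached. Together the 8 genes took 2.22%, 2.06% and 1.68% of all gene counts in replicates 1, 2 and 3, and Snap25 alone gave 75.0%, 74.4% and 69.3% of their sum. The median over the 8 genes was 7.29 on the scale log2(per-kb level + 0.1), against 1.67 over all genes with a count. The remaining gene, Stx1a, was all but absent. The plot of CPM by library shows this gap.

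**Figure D1:**
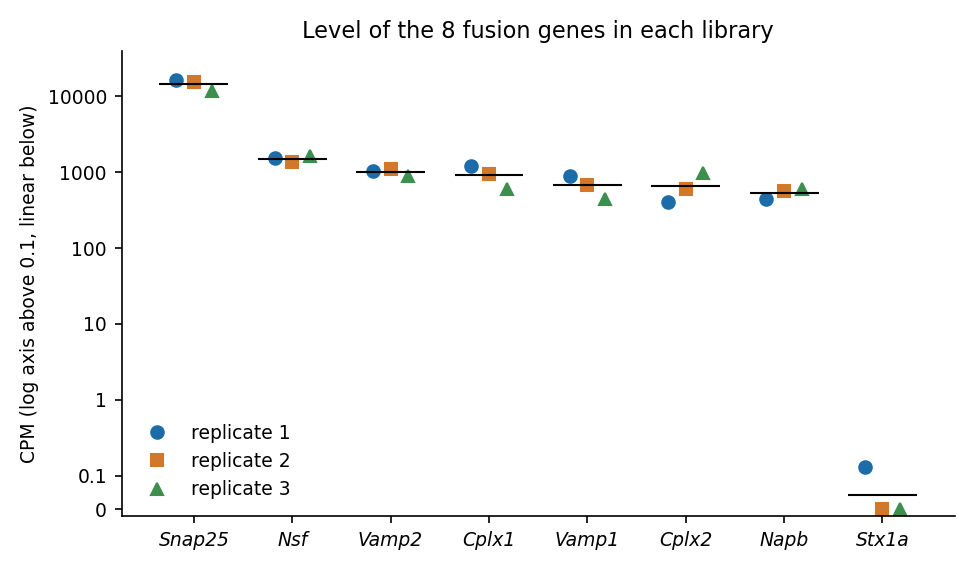
CPM of the 8 fusion genes (y axis, log scale above 0.1 and linear below) in replicates 1, 2 and 3 (circle, square, triangle), with the mean as a line, ordered by mean CPM. Snap25 lies at 11655 CPM or above in every library, 6 genes lie between 411 and 1632 CPM, and Stx1a lies at 0.130 CPM or 0.

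Snap25 (chromosome 2, plus strand, positions 136713453 to 136782428 of mm10, the longest coding transcript having 8 exons) encodes the plasma membrane SNARE that supplies more of the bundle's helices than any other. It had 128328, 135375 and 88837 counts in replicates 1, 2 and 3, or 16676, 15310.3 and 11655 CPM. Replicate 3 was the lowest, and the highest library exceeded it 1.43-fold. The mean of 14547 ± 2596 CPM (SD, n = 3) gave Snap25 rank 2 of all gene rows by CPM, which does not take length into account. Per kb it was at 2142 ± 382 with the length of all exons joined (6791 bases), rank 4 of the 23883 genes with a length. With the length of its longest coding transcript (2116 bases) it was at 6875 ± 1227, rank 1 of 20436. Without replicate 3 the coefficient of variation (CV, SD over mean) of Snap25 fell from 17.8% to 6.04%. It rose to 19.2% without replicate 1 and to 25.1% without replicate 2.

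Over the 3 libraries Snap25 kept a close ratio to the summed pan-neuronal markers, but not to those of every neuronal list. The summed CPM of Rbfox3, Nefl, Nefm, Nefh, Syp and Tubb3 was 7681, 7515 and 5538 in replicates 1, 2 and 3. Snap25 was 2.17, 2.04 and 2.10 times that sum, a ratio of 2.10 ± 0.067 (SD, n = 3). Nefm and Nefl had the highest means in that sum, at 3393 and 1902.5 CPM. In the same libraries the summed astrocyte markers stood at 1631, 1803 and 2207 CPM and the summed granule cell markers at 2723, 3091 and 3119 CPM. The summed Purkinje cell markers stood at 5539, 7555 and 7120 CPM. The granule and Purkinje sums were thus lowest in replicate 1, where Snap25 was highest. The summed inhibitory markers, at 693, 396 and 910 CPM, were highest in replicate 3, where Snap25 was lowest. The summed glutamatergic deep nuclei markers fell in the same order as Snap25, at 652, 474 and 431 CPM. That order was shared by 381 of the 2070 genes with a mean of at least 100 CPM. The part of these markers in the level of Snap25 was not tested.

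Both synaptobrevin genes were abundant, with Vamp2 the higher per kb in every library. Vamp2 (chromosome 11, plus strand, positions 69088490 to 69092384) is the main synaptobrevin of forebrain synapses, and Vamp1 (chromosome 6, plus strand, positions 125215551 to 125245964) is its relative of motor and other fast synapses. Vamp2 had 8004, 9829 and 6794 counts in replicates 1, 2 and 3, or 1040.1, 1112 and 891 CPM. Vamp1 had 6950, 6070 and 3393 counts, or 903, 686 and 445 CPM. Both were lowest in replicate 3, where Vamp1 stood 2.03-fold below its highest library and Vamp2 1.25-fold.

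Per kb of exon, Vamp2 was at 273, 292 and 234 and Vamp1 at 88.8, 67.5 and 43.8, so the ranges did not overlap. The difference of Vamp2 minus Vamp1 was 2.05 ± 0.40 on the scale log2(per-kb level + 0.1), or 4.14-fold (SD, n = 3, Vamp2 higher in 3 of 3 libraries). With the longest coding transcripts (2205 and 3011 bases in place of 3809 and 10167) it was 1.08 ± 0.40, or 2.12-fold. An exact permutation test that flips the signs of the 3 differences (two-sided) gave p = 0.25, the smallest value it can give, for this and all 11 differences computed, so none can pass 0.05 and sizes are read against the SD. Vamp2 made up 75.5%, 81.2% and 84.2% of the pair per kb in replicates 1, 2 and 3.

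The complexin genes showed the largest exchange between libraries. Cplx1 (chromosome 5, minus strand, positions 108518554 to 108550024, 4 exons) had 9286, 8392 and 4640 counts in replicates 1, 2 and 3, or 1207, 949 and 609 CPM. Cplx2 (chromosome 13, plus strand, positions 54371349 to 54383917, 4 exons) had 3165, 5346 and 7492 counts, or 411, 605 and 983 CPM. The library that was highest for Cplx1 was the lowest for Cplx2, and the reverse held for replicate 3. The ratio of Cplx1 to Cplx2 per kb was 6.61, 3.53 and 1.39, which differs 4.74-fold between replicates 1 and 3 whatever length is used.

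Per kb, Cplx1 was nevertheless the higher of the pair in 3 of 3 libraries. The log2 difference of Cplx1 minus Cplx2 was 1.67 ± 1.13 per kb (3.19-fold; SD, n = 3), and it was 2.27 (4.83-fold) without replicate 3 and 1.15 (2.22-fold) without replicate 1. Its SD was the widest of the pairs in which both genes had over 1000 counts in every library. Without scaling by length, Cplx1 was ahead in 2 of 3 libraries, since the Cplx2 transcript (4928 bases) is longer than that of Cplx1 (2189 bases). Cplx1 made up 86.9%, 77.9% and 58.2% of the pair per kb.

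**Figure D2:**
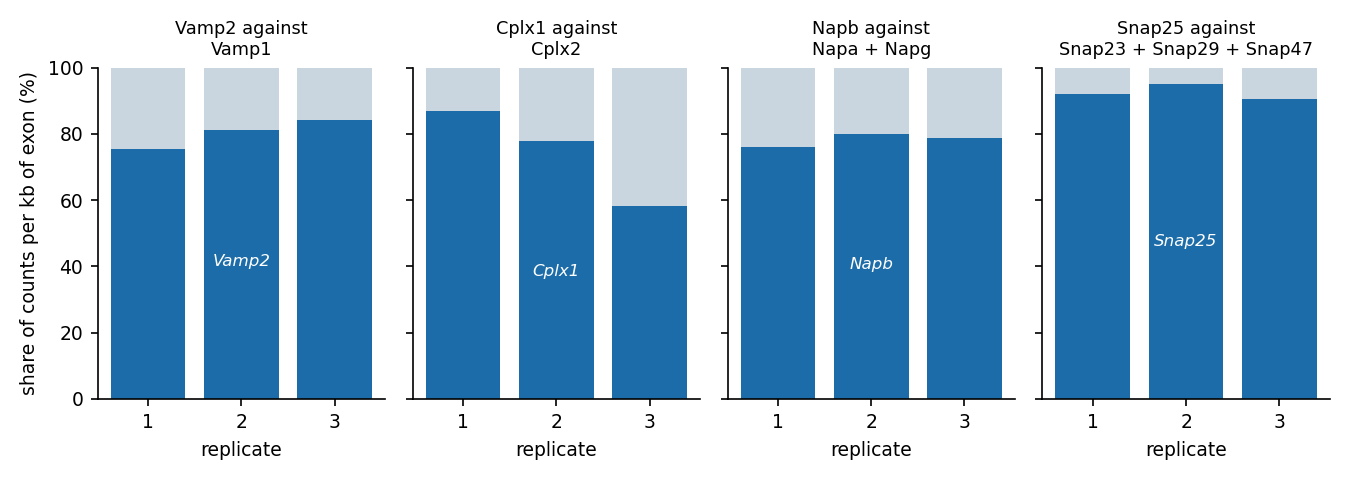
Share of counts per kb of exon (y axis, %, from 0 to 100) that the named gene takes of its paralog group in each of 3 libraries (x axis), with the rest in light grey. Cplx1 ranges from 58.2% to 86.9% of the complexin pair, while Vamp2, Napb and Snap25 range over less than 10 percentage points each.

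The sum of the complexin genes spread less than either gene. In CPM the sum of Cplx1 and Cplx2 was 1618, 1554 and 1592 in replicates 1, 2 and 3, a CV of 2.04%, against 32.5% for Cplx1 and 43.6% for Cplx2. Per kb the sum was 635, 556 and 478, a CV of 14.1%, because the shorter Cplx1 then carries more weight. Since the choice of scale moves this CV, the narrow range in CPM describes reads and not molecules. Summed inhibitory markers (Gad1, Gad2, Slc32a1, Slc6a5) were at 693, 396 and 910 CPM and summed glutamatergic deep nuclei markers at 652, 474 and 431 CPM in the same libraries. The part of cell makeup in the complexin ratio was not tested.

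The members that stood lowest in replicate 3 and highest in replicate 1 were Snap25, Vamp1 and Cplx1, while Cplx2 and Napb had the opposite order. Among the 2070 genes with a mean of at least 100 CPM, 381 had the first order and 390 the second, so neither order is rare. For a view of what lies upstream of these genes, the 250 bases before the RefSeq start of transcription (build GRCm38.p6) are shown for Vamp1 and Cplx1, which deviated alike, and for Cplx2, which deviated the other way. They are printed 5′ to 3′ on the strand of the gene: Vamp1 from chr6:125215331-125215580 (plus), Cplx1 from chr5:108550028-108550277 (minus) and Cplx2 from chr13:54302306-54302555 (plus). Capitals mark matches on either strand to CCAAT, the GC box GGGCGG, the TATA box TATAAA or the E-box CACGTG, and no match overlapped another. The RefSeq start of Cplx2 lies well upstream of the gene span that GENCODE M21 gives, so the exon length used for Cplx2 may leave out RefSeq exons.
Vamp1: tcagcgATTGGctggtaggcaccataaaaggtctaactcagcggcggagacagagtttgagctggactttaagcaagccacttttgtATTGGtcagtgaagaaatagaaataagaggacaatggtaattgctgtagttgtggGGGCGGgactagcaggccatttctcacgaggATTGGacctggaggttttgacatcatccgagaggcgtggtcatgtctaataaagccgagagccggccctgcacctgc
Cplx1: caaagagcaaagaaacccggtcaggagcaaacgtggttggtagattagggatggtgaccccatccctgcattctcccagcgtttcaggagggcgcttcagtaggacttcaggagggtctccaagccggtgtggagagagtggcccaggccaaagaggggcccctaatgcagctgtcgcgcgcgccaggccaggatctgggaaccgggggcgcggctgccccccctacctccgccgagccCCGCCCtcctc
Cplx2: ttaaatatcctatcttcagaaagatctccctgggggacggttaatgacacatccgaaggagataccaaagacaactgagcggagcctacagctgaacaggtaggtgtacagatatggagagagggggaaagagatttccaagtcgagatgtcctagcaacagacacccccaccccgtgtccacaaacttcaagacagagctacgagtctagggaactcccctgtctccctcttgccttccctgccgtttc

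The Vamp1 stretch holds 3 matches to CCAAT and 1 GC box, the Cplx1 stretch 1 GC box, and the Cplx2 stretch none of the 4 motifs. Of 32807 promoter stretches of that length, 33.8% hold CCAAT, 32.7% the GC box, 12.4% TATAAA and 6.0% CACGTG. Cplx1 has 15 CpG dinucleotides, Vamp1 9 and Cplx2 7, against a median of 6. The stretch of Napb, which had the order of Cplx2 and is not printed, holds none of the 4 motifs. It has 11 CpG, more than that of Vamp1. A match is only a run of letters, and the libraries do not measure binding.

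**Figure D3:**
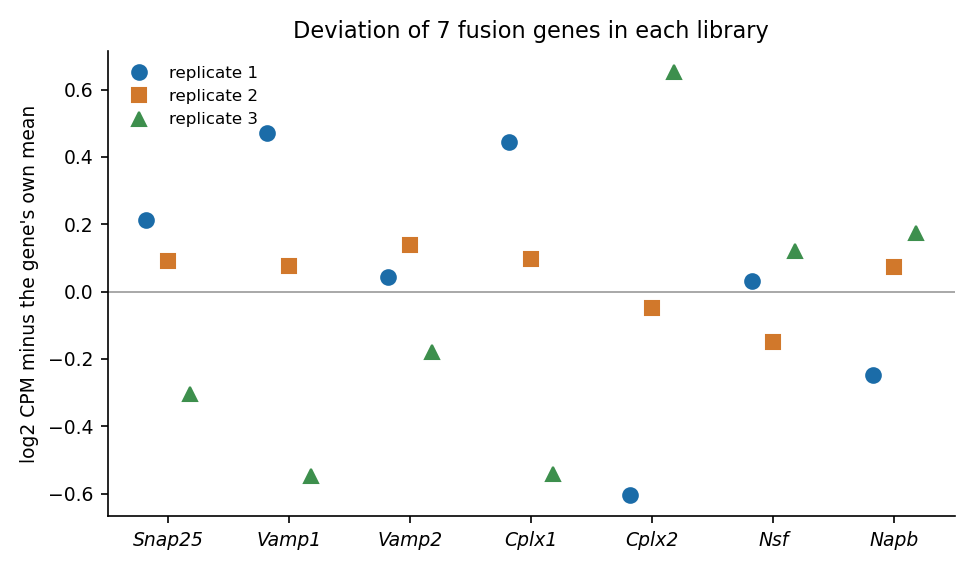
Deviation of each of 7 fusion genes (x axis) from its own mean on the log2 CPM scale (y axis) in replicates 1, 2 and 3 (circle, square, triangle). In replicate 3 Vamp1 and Cplx1 lie at -0.55 and -0.54 while Cplx2 lies at 0.65, and Nsf stays within -0.15 and 0.12.

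Stx1a, the syntaxin that is often used as the textbook partner of Snap25, had 1, 0 and 0 counts in replicates 1, 2 and 3. The gene (chromosome 5, plus strand, positions 135023482 to 135051100) has 10 exons in its longest coding transcript and 2666 exonic bases. That is 1 of 24159465 gene counts, or 0.0414 CPM with an exact 95% Poisson interval of 0.00105 to 0.231 CPM, which covers counting error only. In replicates 2 and 3 the count of 0 allows up to 0.339 and 0.394 CPM, with 3 counts taken as the limit. Neither an overlapping exon nor a shared word of 50 bases was found for it in GENCODE M21. Whether the authors' gene model covered the expressed exons of Stx1a was not tested.

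Plasma membrane syntaxins of wider expression stood between Stx1a and the other members. Stx4a was at 13.9 ± 2.79 per kb (SD, n = 3) and Stx3 at 5.22 ± 2.16 per kb, both under every member but Stx1a. Their ranks were 2667 and 5522 of the 23883 genes with a length. Stx2 had 12, 3 and 2 counts.

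Snap25 and the summed synaptobrevins kept a closer proportion than either kept its level. Snap25 exceeded the sum of Vamp1 and Vamp2 per kb 6.79-fold, 6.27-fold and 6.18-fold in replicates 1, 2 and 3, a log2 difference of 2.68 ± 0.073 (6.41-fold; SD, n = 3). With the longest coding transcripts the ratio was 10.2, 9.88 and 9.98, so its size depends on the length used. The CV of the ratio was 5.09% with all exons and 1.70% with the longest coding transcripts. Snap25 itself had a CV of 17.8% and the sum of the synaptobrevins one of 14.4% per kb of all exons. How often other genes keep so close a ratio to Snap25 was not tested. The sum of the complexins lay below Snap25 per kb, with a log2 difference of -1.94 ± 0.087 (3.83-fold) with all exons and -3.62 ± 0.087 (12.3-fold) with the longest coding transcripts. In CPM the ratio of Snap25 to the complexins was less steady, at 10.3, 9.85 and 7.32. The differences of Snap25 and of the synaptobrevins to Stx1a, 14.18 ± 0.24 and 11.50 ± 0.29, are set by the pseudocount, since Stx1a was at 0 in 2 libraries.

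Of the genes that take the SNARE bundle apart, Nsf had the lowest CV of the 7 members tested. Nsf (chromosome 11, minus strand, positions 103821782 to 103954056, 21 exons), the ATPase, had 11813, 11960 and 12436 counts, or 1535, 1353 and 1632 CPM. Its mean of 1506 ± 142 CPM had a CV of 9.40%, lower than that of all but 9.7% of the genes with at least 100 CPM. Napb (chromosome 2, minus strand, positions 148693985 to 148732467, 11 exons), the brain form of the adaptor, had 3455, 4966 and 4592 counts, or 449, 562 and 602 CPM. Replicate 1 was its lowest library, and without it the CV of Napb was 4.96% in place of 14.8%. That CV was 20.65% without replicate 2 and 15.8% without replicate 3. Per kb Nsf lay above Napb by a log2 difference of 1.25 ± 0.26 (2.38-fold, higher in 3 of 3 libraries), or 1.72 ± 0.26 (3.30-fold) with the longest coding transcripts.

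Napb was the main adaptor gene of the 3 in the tables. Napa, the widely expressed alpha form, had 358, 496 and 368 counts, and Napg, the gamma form, 511, 387 and 668 counts. Per kb Napb exceeded Napa by a log2 difference of 2.51 ± 0.20 (5.68-fold) and Napg by 3.34 ± 0.52 (10.1-fold), each in 3 of 3 libraries. With the longest coding transcripts the difference from Napg was 2.76 ± 0.52 (6.77-fold). Napb made up 76.1%, 80.0% and 78.8% of the 3 genes per kb.

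Ordered by level per kb of exon, the members ran from Snap25 (2142 ± 382; SD, n = 3) through Cplx1 (421 ± 137), Vamp2 (266 ± 29.5), Nsf (180.5 ± 17.0), Cplx2 (135 ± 59.0), Napb (76.3 ± 11.3) and Vamp1 (66.7 ± 22.5) to Stx1a. Of these neighbours, Snap25 and Cplx1, Vamp2 and Nsf, and Vamp1 and Stx1a did not overlap in their library values. Cplx1 and Vamp2, Nsf and Cplx2, Cplx2 and Napb, and Napb and Vamp1 overlapped. With the longest coding transcripts Vamp2 (460.0 ± 51.0) passed Cplx1 and Vamp1 (225 ± 76.1) passed Cplx2 and Napb, so the middle of the order depends on the gene model.

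Members differed between libraries beyond counting error, as nearly all genes did. By a Poisson chi-square test over all genes with Benjamini-Hochberg adjustment, 96.5% of 11168 genes tested were called, and so were 7 of the 7 members tested. Stx1a had too few counts to be tested. The chi-square per degree of freedom ran from 69.9 for Napb and 94.0 for Nsf to 884 for Cplx2 and 4388 for Snap25, whose counting error is 0.272% to 0.336% per library. Without replicate 2, Nsf was no longer called while the 6 others were. Against genes of like level, edgeR's quasi-likelihood dispersion called 0 of 7 members and 0 of all genes at an adjusted p under 0.05, and limma also called 0. Before adjustment edgeR placed 477 genes (4.27%) and 1 of the 7 members, Snap25, under 0.05. Limma placed 531 genes and 3 of the 7 members there, namely Snap25, Cplx1 and Cplx2. The adjusted p of Snap25 was 0.956 by edgeR and 0.0652 by limma, so its standing depends on the tool. Few genes lie near the level of Snap25 (rank 2 by CPM), so the trend there rests on few genes. The quasi-likelihood dispersion was 4.45 times the trend for Snap25, 3.98 for Cplx2, 3.51 for Cplx1 and 3.19 for Vamp1, against 0.472 for Vamp2, 0.370 for Napb and 0.269 for Nsf.

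**Figure D4:**
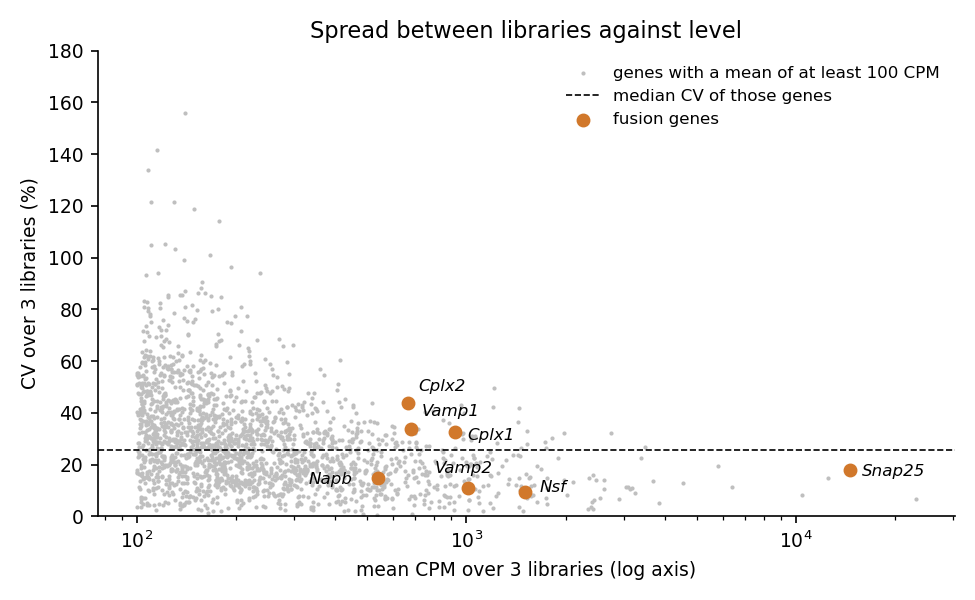
CV over 3 libraries (y axis, %) against mean CPM (x axis, log scale) for the 2070 genes with a mean of at least 100 CPM (grey), with 7 fusion genes in orange and the median CV of 25.6% as a dashed line. Cplx2, Vamp1 and Cplx1 lie above the median at 43.6%, 33.8% and 32.5%, and Snap25, Napb, Vamp2 and Nsf lie below it at 17.8%, 14.8%, 11.1% and 9.40%.

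The 2070 genes at that level had a median CV of 25.6% and a median of 1.63 for the highest over the lowest library. Cplx2 (2.39), Vamp1 (2.03) and Cplx1 (1.98) exceeded that fold, while Snap25 (1.43), Napb (1.34), Vamp2 (1.25) and Nsf (1.21) stayed under it. Without replicate 3 the CV of Cplx2 was 26.9%, that of Vamp1 19.3%, that of Cplx1 16.9% and that of Vamp2 4.70%. Without replicate 2 the CV of Nsf was 4.31%. Likeness to Snap25 was measured as the distance between the 3 log2 CPM deviations of each gene from its own mean. The 5 nearest of 2069 genes were Prkar1b (0.019), Frmpd4 (0.022), Pogz (0.025), Cend1 (0.032) and Cdr1 (0.037). With 3 libraries 135 genes came within 0.2, against a median distance of 0.65. Vamp2 lay at 0.22, Cplx1 at 0.33, Vamp1 at 0.36, Nsf at 0.52, Napb at 0.67 and Cplx2 at 1.27.

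Next to the members, a wider list of 50 other genes of membrane fusion was read. Of these, 27 had at least 10 CPM in every library and 11 at least 100 CPM, against 35.0% and 9.32% of all genes with a count. The median was 2.87 on the scale log2(per-kb level + 0.1), over the 48 genes with a length. Among the other Q-SNAREs of the plasma membrane, 4 of 7 reached 10 CPM in every library, led by Snap47 at 158 ± 38.4 per kb (SD, n = 3). Snap29 had 394, 63 and 204 counts. Snap23, the widely expressed relative of Snap25, had 49, 51 and 260 counts. Snap25 exceeded Snap23 by a log2 difference of 9.65 ± 1.66 per kb (802-fold), which was 10.6 (1556-fold) without replicate 3, the library with the most Snap23 counts. The difference was 9.17 without replicate 1 (577-fold) and 9.17 without replicate 2 (575-fold). With the longest coding transcripts and all libraries it was 10.70 (1667-fold). Snap25 made up 92.2%, 94.9% and 90.5% of the 4 Snap genes per kb.

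Of the 7 other R-SNAREs, 3 reached 10 CPM in every library. Vamp3 was at 19.5 ± 3.66 per kb (SD, n = 3), Vamp4 at 10.1 ± 3.64 and the ER to Golgi SNARE gene Sec22b at 38.0 ± 7.86. Vamp5 had 0, 59 and 0 counts, Vamp8 0, 0 and 10, and Vamp7 no count. Cplx3 and Cplx4, the complexins of retinal ribbon synapses, had no count in any library. Among 16 Q-SNAREs of endosome, Golgi and ER, 7 reached 10 CPM in every library, with Stx12 (42.2 ± 6.85 per kb), Gosr2 (25.7 ± 15.1) and Vti1a (16.9 ± 6.29) the highest by all exons. Vti1a, at 49.9 ± 18.5, passed Stx12, at 45.9 ± 7.44, and Gosr2 when the longest coding transcripts gave the length. Bnip1 (4, 5 and 1 counts) and Bet1l (0, 1 and 0 counts) were the lowest.

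**Figure D5:**
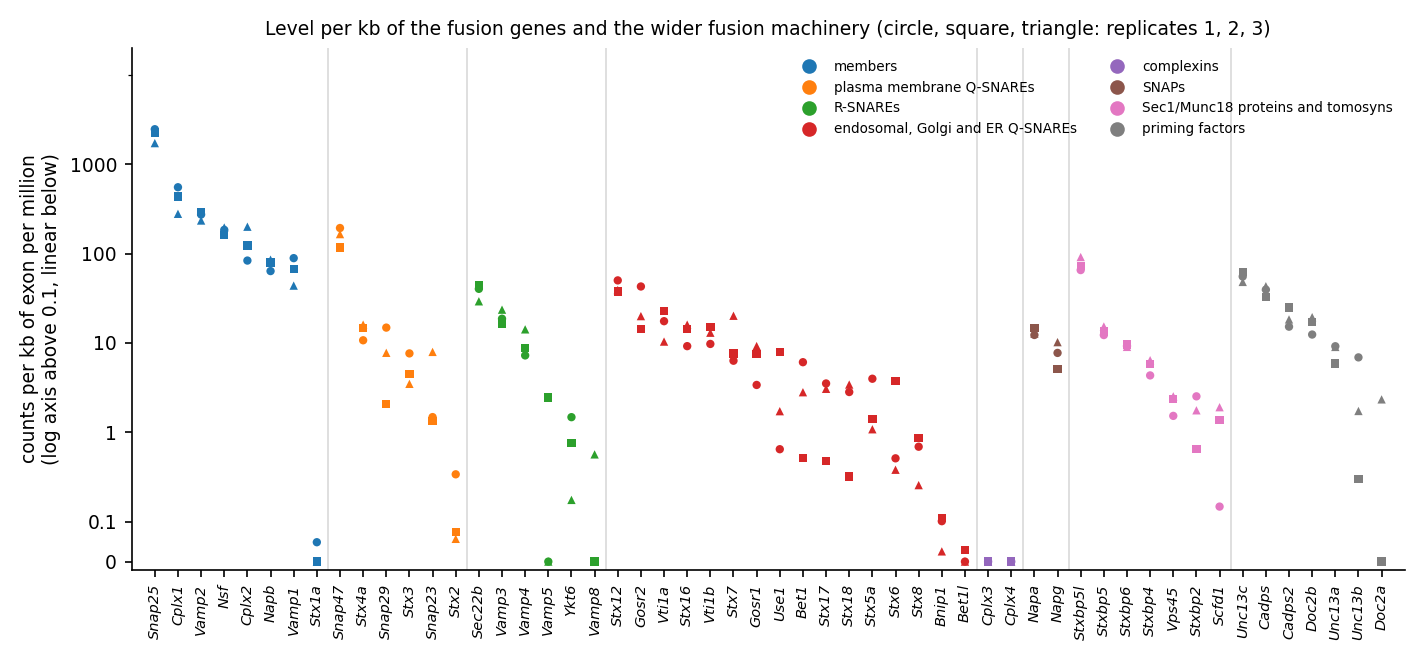
Level as CPM per kb of exon (y axis, log scale above 0.1 and linear below) of the 8 members and the genes of the wider list reported here, grouped by role and ordered by mean, with circle, square and triangle for replicates 1, 2 and 3. Outside the members, Snap47 at 117 to 193 per kb is the highest of the genes drawn and Stxbp5l at 65.3 to 91.4 follows.

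Of 9 genes of the Sec1/Munc18 and tomosyn families, which control SNARE assembly, 6 reached 10 CPM in every library. The tomosyn genes Stxbp5l and Stxbp5 were at 76.5 ± 13.4 and 13.7 ± 1.53 per kb (SD, n = 3), and Scfd1 and Stxbp2 were the lowest at 1.15 ± 0.906 and 1.65 ± 0.945. Of 7 priming factors 5 reached 10 CPM in every library, the Munc13 gene Unc13c (55.3 ± 7.15 per kb) being the highest by all exons, followed by Cadps (38.4 ± 5.34) and Cadps2 (19.5 ± 4.95). With the longest coding transcripts Cadps, at 106 ± 14.7, passed Unc13c, at 55.3 ± 7.15. Unc13b had 1208, 61 and 301 counts and Doc2a 0, 0 and 50, the lowest of that group per kb. Exons of Stx4a, Snap47, Snap29, Gosr2, Bet1l and Doc2a overlap those of other genes, so their counts are uncertain.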

How the data were processed

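RNA bound to tagged ribosomes was measured in 3 libraries of 1 group. The values the authors deposited are raw counts of reads per gene symbol, made with STAR 2.0.0e and HTSeq on mm10, per the submitters' processing notes. For annotation, strand setting and read length nothing is given in the sources used. The 5 HTSeq summary rows and an empty row named unknown were left out. Multiply aligned reads (20.6% to 24.7% of the reads or alignments tallied) are in no gene.

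CPM used the sum of gene counts. Per-kb levels divide CPM by exon lengths of GENCODE M21 (mm10), all exons joined, for 23883 symbols, of which 770 matched by an older symbol. Coding transcripts, TMM and DESeq2 1.42.0 sizes, a size without Rn45s, pseudocounts of 0.1 and 1, and leaving out each library were compared. A length that joins all exons takes in retained introns and lowers the level of genes with many models. Per-kb values also assume even coverage of a transcript.

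Differences within a library were tested by an exact sign-flip permutation test. Spread was tested over all genes that reached 10 counts in 2 or more libraries, with a Poisson chi-square on TMM-scaled sizes and with the edgeR 4.0.16 quasi-likelihood dispersion over its trend, with limma 3.58.1 as alternative and Benjamini-Hochberg adjustment. In a simulation of 11168 genes, some were changed in 1 library. With counting error only, 91% of 2-fold changes passed the Poisson chi-square. The real libraries spread more (square root of the edgeR common dispersion 0.832), so that share does not apply to them. With the spread of the edgeR trend, edgeR passed 48% of 16-fold and 0% of 4-fold changes. The members and lists were chosen with earlier results of these data known. Named are the members, their paralogs, the 3 highest and 2 lowest genes per kb of each other group, and the 5 genes nearest to Snap25. Sequences are from GENCODE M21 and RefSeq promoters, where 6 of the 8 members matched. A few items that enter the counts of the lists are not reported here.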

Additional observations from a re-analysis of the deposited data

How the results depend on the processing

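With DESeq2 or TMM sizes, without Rn45s in the size, and without each library, the mean CPM of the 8 members moved by less than the SD in 48 of 48 values. With 3 libraries, leaving 1 out cannot move a mean by the SD, so only the values with other sizes could have moved. The direction of the 11 gene differences was kept in 66 of 66 values, though sizes moved with the length as given above. Leaving out a library (33 values) or a pseudocount of 1 could not change it, because each difference had the same sign in every library. Only the values with the coding length and without length could have changed direction. The number of genes varying beyond counting error was 10773 of 11168 tested. Without replicates 1, 2 and 3 in turn it was 7977 of 9912, 7902 of 9658 and 7877 of 9582. The number of genes more variable than others of their level was 0 with edgeR, and 20 of 16071 without a filter on low counts. Without a library it was 2 to 5 of the 9582 to 9912 genes tested. The cause was not tested. Of the members' calls in these tests 83 of 84 were kept, the exception being Nsf without replicate 2. Few of them could have changed, since in the main setting edgeR called 0 genes and the Poisson chi-square 96.5% of those tested. Of the 58 fusion genes 34 had at least 10 CPM in every library (34 to 39 without a library, 43 by the mean). Among all genes with a count the share was 35.0%. Leaving out a library or using the mean can only keep or raise the number of 34. Stx1a rests on 1 count, reads without molecular identifiers are not independent molecules, and counting intervals cover counting error only.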
